A study of Mus musculus with 9 samples.

Results

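RNA-seq of the livers of ethanol-fed mice was examined for 7 genes of the epithelial cytoskeleton and the bile ducts, *Krt8*, *Krt18*, *Krt7*, *Krt19*, *Krt23*, *Epcam* and *Sox9*. They were taken from the deposited table by gene name, and all 7 were among its 55401 genes. The livers came from 4 *Ncf1Lyz-/-* mice, which lack the phagocyte NADPH oxidase subunit gene *Ncf1* in myeloid cells through a Cre driven by the lysozyme gene, and from 5 WT mice, which were floxed littermates without the Cre. All 9 were females of 10 to 12 weeks that took liquid diet for 5 days to adapt and then a diet with 5% ethanol for 10 days. On day 11 each was given ethanol by gavage at 5 g/kg, and the liver was collected 9 hours later. No livers of mice without ethanol were compared here, so the values do not show what ethanol itself did to these genes. Library names (NKO2, NKO3, NKO4 and NKO5; WT1, WT2, WT3, WT4 and WT6) are those of the table, which do not tie a column to a single labelled mouse. The sources used here do not say which mice shared a litter or cage, so litter was not a term of any test. All p-values treat the 9 livers as independent, which could not be checked.

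Keratins are intermediate filament proteins that assemble as pairs of one type I and one type II chain. Hepatocytes make a single pair, keratin 8 (type II) and keratin 18 (type I), which protects them from mechanical and toxic stress and which gathers with p62 into Mallory-Denk bodies in human alcoholic hepatitis. Bile duct cells make this pair too and add keratin 7 (type II) and keratin 19 (type I), the adhesion molecule EpCAM and the transcription factor SOX9, and these serve as markers of ducts and of the small ductules that spread through injured livers.

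The recovered depth was about 18.5 to 20.45 M fragments (M, mega) in the 4 *Ncf1Lyz-/-* libraries and in WT1 and WT2, and about 15.55 to 16.2 M in WT3, WT4 and WT6. Genotype and depth can therefore be set apart only with the 2 deeper WT libraries. The deleted gene *Ncf1* itself had 0.507 ± 0.256 FPKM (SD, n = 4) in *Ncf1Lyz-/-* livers, against 0.989 ± 0.587 FPKM (SD, n = 5) in WT livers, with overlapping groups (log2 fold change -0.74, limma adjusted p = 0.890). A value over the whole gene in whole liver does not separate the floxed exons in myeloid cells from the rest. Defining markers of the labelled tissue were abundant, and *Alb*, which encodes albumin, had 40812 ± 5313 FPKM in *Ncf1Lyz-/-* livers, against 37735 ± 4265 FPKM in WT livers.

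The hepatocyte pair *Krt8* and *Krt18* had lower levels in *Ncf1Lyz-/-* livers, at 0.493 and 0.544 of the WT level, while the duct genes *Krt19*, *Epcam* and *Sox9*, the stress keratin *Krt23* and the barely present *Krt7* had no difference that stood out from the spread between livers. Neither *Krt8* nor *Krt18* passed the test after adjustment over all genes. The test was limma on log2(FPKM + 0.1), where FPKM counts fragments per kilobase of a gene and per M fragments of the library, across the 12350 genes whose mean reached 0.5 FPKM. Of these genes 1 (0.0081%) passed an adjusted p under 0.05, and it was not a member. At an unadjusted p under 0.05, 2 of the 6 members tested were lower and 0 were higher, where 3.73% of all tested genes were lower and 2.17% were higher. In whole liver, fewer cells of a type and less RNA per cell cannot be told apart.

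*Krt8*, the type II keratin of hepatocytes, had 209, 86.8, 125 and 113 FPKM in the *Ncf1Lyz-/-* livers NKO2 to NKO5, against 322, 151, 337, 212 and 321 FPKM in the WT livers WT1, WT2, WT3, WT4 and WT6. The groups overlapped in a single place, since NKO2 lay above WT2. The mean was 134 ± 52.9 FPKM (SD, n = 4) in *Ncf1Lyz-/-* livers, against 269 ± 82.7 FPKM (SD, n = 5) in WT livers. The log2 fold change was -1.02 (standard error 0.30, 95% interval -1.69 to -0.34), with a limma adjusted p of 0.783 and an unadjusted p of 0.00733. An exact two-sided permutation of the genotype labels gave p = 0.0317, where 4 against 5 livers allow no p below 0.00794.

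*Krt18*, the type I partner, had 161, 139, 120 and 114 FPKM in NKO2 to NKO5, against 303, 175, 317, 184 and 276 FPKM in WT1 to WT4 and WT6. All 4 *Ncf1Lyz-/-* livers lay below all 5 WT livers. Among the 6 members tested this was the 1 with groups that did not overlap, where 1.5% of all tested genes lay wholly lower and 0.713% wholly higher. *Krt18* averaged 133 ± 21.4 FPKM (SD, n = 4) in *Ncf1Lyz-/-* livers, against 251 ± 67.0 FPKM (SD, n = 5) in WT livers. Its log2 fold change was -0.88 (standard error 0.21, 95% interval -1.34 to -0.42), with a limma adjusted p of 0.558 and an unadjusted p of 0.00181. The exact permutation test, two-sided, gave p = 0.0238.

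**Figure D1:**
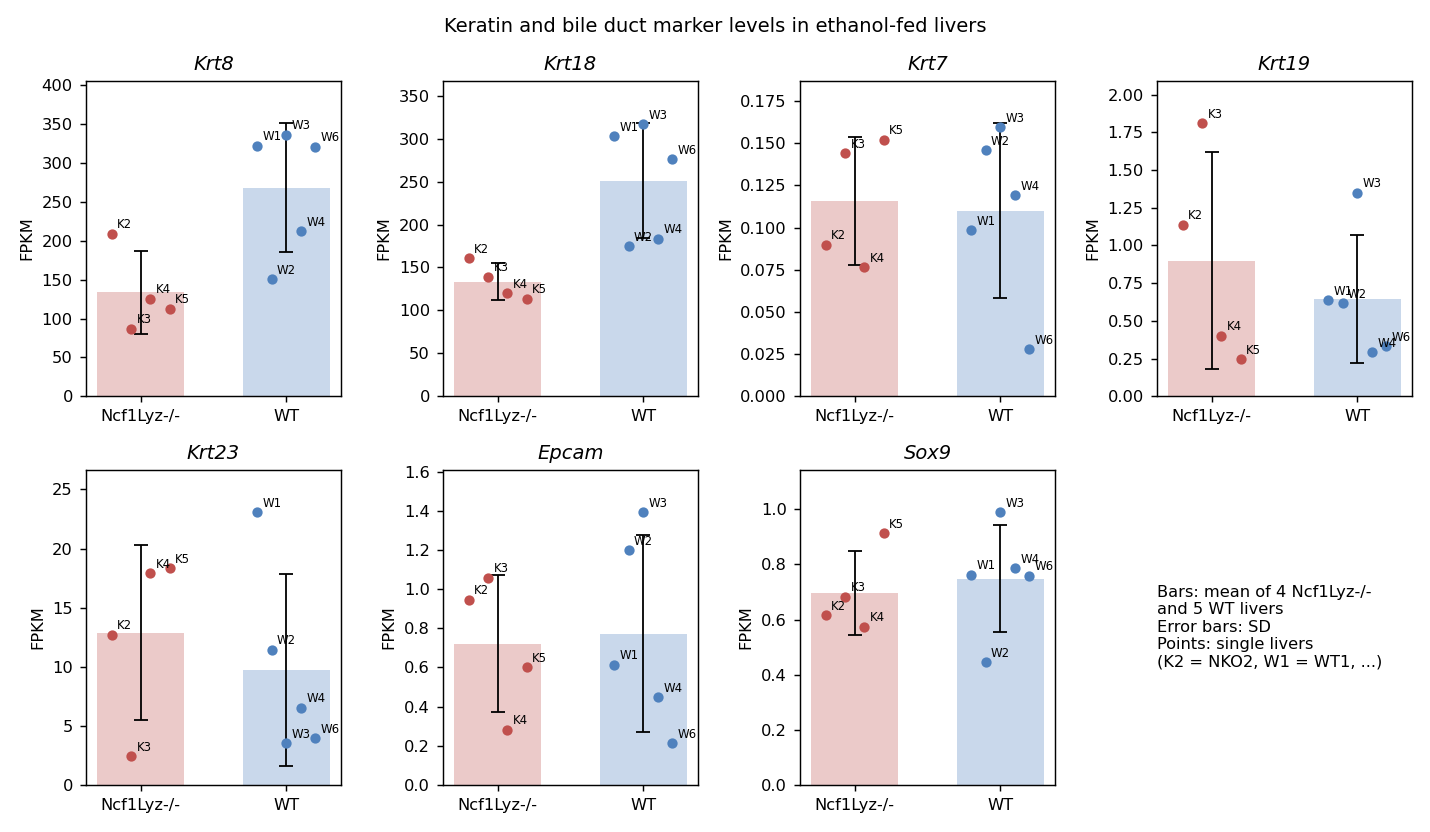
FPKM of the 7 members in 4 *Ncf1Lyz-/-* livers (red, left) and 5 WT livers (blue, right); bars are means, error bars SD and points single livers. *Krt18* has no overlap between the groups, *Krt8* overlaps only where NKO2 (209 FPKM) exceeds WT2 (151 FPKM), and the groups of the other 5 genes overlap widely.

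By unadjusted p, *Krt18* ranked 40 and *Krt8* 112 among the 12350 genes tested. Both were abundant, with *Krt8* 217 and *Krt18* 229 in the order of mean FPKM, so that about 3374 to 11672 fragments per library stood behind *Krt8* and 3275 to 8046 behind *Krt18*. Counting error was thus small beside the spread between livers. The largest and smallest *Krt8* levels were 3.88-fold apart, and its SD within groups was 0.518 on the log2 scale, where the median tested gene had 0.298. *Krt18* was less variable within groups (0.343).

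The difference was present in the deeper libraries, with less certainty. With WT1 and WT2 as the only WT livers, the log2 fold change of *Krt18* was -0.80 (limma unadjusted p = 0.017) and that of *Krt8* was -0.80 (unadjusted p = 0.10). In this comparison the median of all tested genes lay at -0.11, so each gene stood about that much less below the rest. When each of the 9 libraries was left out in turn, *Krt8* stayed between -1.26 and -0.84 and *Krt18* between -1.0 and -0.78.

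The pair is also a pair in the genome. On GRCm38, *Krt8* lies on the reverse strand at chr15:101996698-102004482 (9 exons in its longest annotated transcript) and *Krt18* on the forward strand at chr15:102028180-102032027 (7 exons). The genes face away from each other, with 23697 bases and 0 annotated genes between them. *Krt7* lies on the same chromosome (chr15:101411043-101430313, forward strand, 9 exons). *Krt19* (chr11:100140810-100148665, 6 exons) and *Krt23* (chr11:99477974-99493137, 8 exons) are both in the type I keratin cluster on the reverse strand of chromosome 11. *Epcam* lies at chr17:87635979-87651129 (forward strand, 10 exons) and *Sox9* at chr11:112782224-112787760 (forward strand, 3 exons).

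The RefSeq promoter table for GRCm38.p6 (250 bases before to 50 after each start) was searched. It has no entry for *Krt19* or *Sox9*, so these were not searched. Matches are given here for 4 members, *Krt18*, *Krt7*, *Krt23* and *Epcam*. The letters CACCTG, one form of the E-box, were found on either strand in each of these, and in 20.2% of the table's 32851 promoters. The windows of 30 bases around the matches are shown because they place the same 6 letters (capitals) in the promoter of *Krt18*, which had lower values in *Ncf1Lyz-/-* livers, and in those of 3 members that did not stand out. They read 5′ to 3′ on the strand of the gene, from GRCm38.p6.
*Krt18*, chr15:102027990-102028019, forward strand: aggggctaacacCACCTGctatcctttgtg
*Krt7*, chr15:101412347-101412376, forward strand: ccgccctgtcccCACCTGtgtgcgctcagc
*Krt23*, chr11:99493335-99493364, reverse strand: agatctgctaccCACCTGgtggcctgggcc
*Epcam*, chr17:87635780-87635809, forward strand: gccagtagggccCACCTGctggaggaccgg
*Epcam*, second match, chr17:87635948-87635977, forward strand: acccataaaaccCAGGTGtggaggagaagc
The first letter of the match lies 214 bases before the RefSeq start in *Krt18*, 44 in *Krt7*, 232 in *Krt23*, and 187 and 19 in *Epcam*, whose second match reads CAGGTG because it is on the opposite strand. Whether these letters bear on the level of any member was not tested. Of the other motifs searched on both strands, GGGCGG (35.7% of promoters) was found in *Krt7* and *Epcam*. CACGTG (7.15%) was found in *Krt23* and *Epcam*, and neither TGANTCA (7.81%) nor TTCNNNGAA (8.30%) in any of these 4. A match is a string of letters and no measured binding site.

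*Krt8* has a processed copy that could share its reads. *Krt8-ps* (chr7:23357125-23358069, forward strand) is 945 bases long and identical to *Krt8* at 98.6% of 941 aligned bases. It had 2.01, 0.996, 1.50 and 1.35 FPKM in NKO2 to NKO5, against 2.79, 1.20, 3.16, 2.28 and 3.07 FPKM in WT1 to WT4 and WT6. These values followed those of *Krt8* closely, at 0.794% to 1.20% of its FPKM in every library. How the counting split reads between the 2 was not stated, and a share of this size is small beside the difference of *Krt8*.

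*Krt8* and *Krt18* varied together from liver to liver. The ratio of their FPKM was 1.30, 0.623, 1.05 and 0.994 in NKO2 to NKO5, and 1.06, 0.860, 1.06, 1.16 and 1.16 in WT1 to WT4 and WT6. NKO3, which had the lowest *Krt8* of all livers but not the lowest *Krt18*, departed most from an even ratio. Over the 9 livers the log2 values had Pearson r = 0.91 (exact permutation p = 0.0014, adjusted over the 21 pairs of members p = 0.030) and Spearman rho = 0.93 (exact permutation p = 0.00075, adjusted p = 0.016). These permutations, like those of the other pairs, did not hold genotype fixed. A shift of both genes between the groups can therefore add to r and lower its p. The relation was as close without NKO3 and NKO5, the livers farthest from the median of *Krt8* (r = 0.95). After the group means were removed r was 0.80, a value that was not tested. It was 0.95 among the WT livers and 0.56 among the *Ncf1Lyz-/-* livers, described here with no test because each group is small. Summed, the pair made 267 ± 69.3 FPKM in *Ncf1Lyz-/-* livers, against 519 ± 148 FPKM in WT livers (SD, n = 4 and n = 5).

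**Figure D2:**
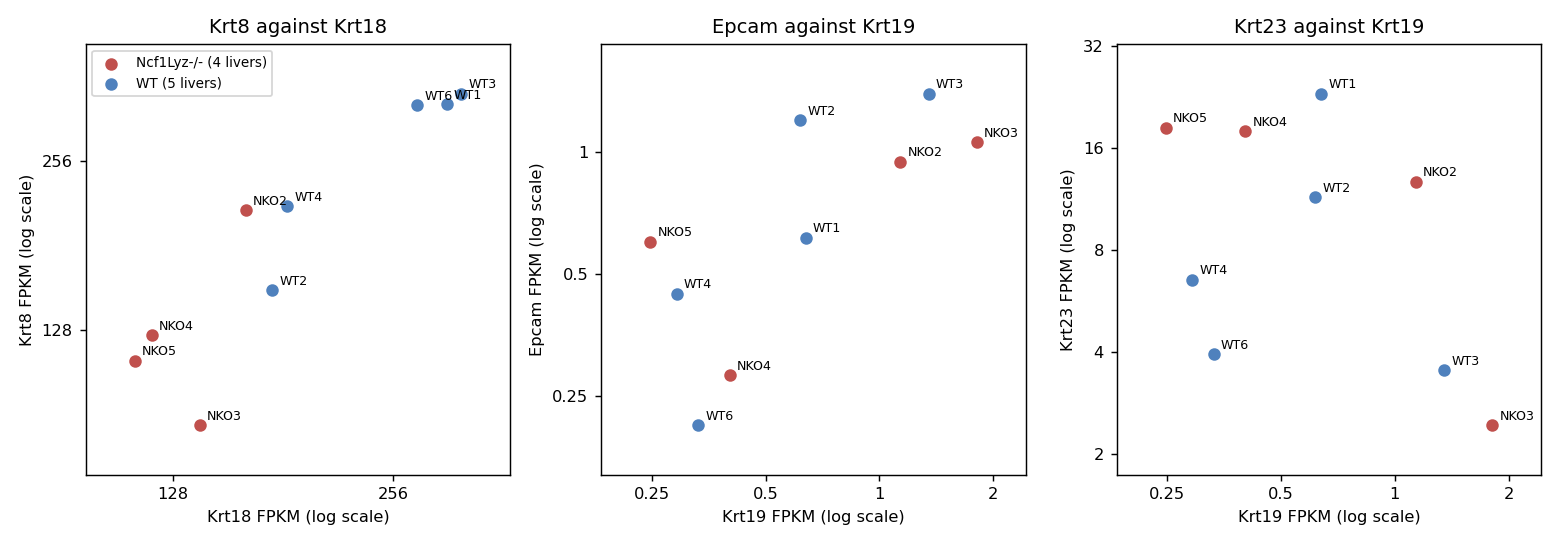
FPKM of *Krt8* against *Krt18*, *Epcam* against *Krt19* and *Krt23* against *Krt19* (log scales, 1 point per liver, *Ncf1Lyz-/-* red, WT blue). *Krt8* and *Krt18* line up (r = 0.91) with the *Ncf1Lyz-/-* livers at the low end, *Epcam* and *Krt19* line up with the groups mixed (r = 0.75), and *Krt23* has no clear relation with *Krt19* (r = -0.46).

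The duct keratins were scarce in these livers. *Krt19*, the type I keratin of bile duct cells, had 1.14, 1.81, 0.402 and 0.247 FPKM in NKO2 to NKO5, against 0.638, 0.616, 1.35, 0.291 and 0.332 FPKM in WT1 to WT4 and WT6. Both groups held high and low livers and overlapped over most of their range. The mean was 0.899 ± 0.721 FPKM (SD, n = 4) in *Ncf1Lyz-/-* livers, against 0.646 ± 0.425 FPKM (SD, n = 5) in WT livers. The log2 fold change was 0.27 with an interval of -0.97 to 1.51 (limma adjusted p = 0.969), which is wide enough to hold a doubling, and its sign turned to -0.15 without NKO3. Only about 7 to 57 fragments per library stood behind it. For genes this low, the 0.1 added before the log makes a fold change look smaller than it is.

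*Krt7*, the type II keratin of bile duct cells, was lower still and did not reach the mean of 0.5 FPKM that the test required. It had 0.0899, 0.144, 0.0766 and 0.152 FPKM in NKO2 to NKO5, against 0.0984, 0.146, 0.159, 0.119 and 0.0278 FPKM in WT1 to WT4 and WT6. Every library was above the value for an absent gene (0.0001 FPKM), but with about 2 to 13 fragments each. No group difference was detectable at this depth (log2 fold change 0.06, interval -0.49 to 0.61, exact permutation p = 0.833, two-sided). The added 0.1 is close to the whole level of *Krt7*, so the fold change and its interval are drawn toward 0. With 0.01 added instead, the log2 fold change was 0.18 (standard error 0.55).

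*Krt23*, a type I keratin known from ductular reactions and from stressed mouse liver, was the third most abundant member and the most uneven one. It had 12.7, 2.44, 17.9 and 18.4 FPKM in NKO2 to NKO5, against 23.1, 11.4, 3.54, 6.53 and 3.95 FPKM in WT1 to WT4 and WT6. NKO3 lay far below the other *Ncf1Lyz-/-* livers and WT1 far above the other WT livers, and the groups overlapped almost completely. The largest and smallest levels were 9.46-fold apart, and the SD within groups (1.22 on the log2 scale) exceeded that of 97.6% of the genes tested. *Krt23* averaged 12.9 ± 7.40 FPKM (SD, n = 4) in *Ncf1Lyz-/-* livers, against 9.71 ± 8.11 FPKM (SD, n = 5) in WT livers. The log2 fold change was 0.42 (standard error 0.70, interval -1.15 to 1.98, limma adjusted p = 0.955).

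Direction itself was unsettled for *Krt23*. The 3 shallower WT libraries had 3.54 to 6.53 FPKM and the 2 deeper ones 23.1 and 11.4 FPKM, so that among deeper libraries alone the log2 fold change was -0.68 (standard error 0.84). Without NKO3 it was 1.08. About 76 to 668 fragments per library stood behind *Krt23*, so counting error was small beside this spread.

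*Epcam*, which encodes the adhesion molecule of duct epithelium, had 0.947, 1.06, 0.282 and 0.601 FPKM in NKO2 to NKO5, against 0.615, 1.20, 1.39, 0.447 and 0.212 FPKM in WT1 to WT4 and WT6. The lowest and highest livers were both WT, and all *Ncf1Lyz-/-* livers lay between them. The log2 fold change was 0.01 (standard error 0.50, interval -1.11 to 1.13, limma adjusted p = 0.997), and the sign changed under 10 of 20 alternative settings. About 7 to 46 fragments per library stood behind these values.

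*Sox9*, a transcription factor of duct cells and of hepatocytes that take on duct traits, was the steadiest of the low members. It had 0.616, 0.684, 0.573 and 0.914 FPKM in NKO2 to NKO5, against 0.763, 0.445, 0.990, 0.787 and 0.759 FPKM in WT1 to WT4 and WT6. The groups overlapped, and their means were 0.697 ± 0.152 FPKM (SD, n = 4) in *Ncf1Lyz-/-* livers, against 0.749 ± 0.195 FPKM (SD, n = 5) in WT livers. The log2 fold change was -0.07 with an interval of -0.60 to 0.45 (limma adjusted p = 0.978). That interval leaves out both a doubling and a halving, whereas those of *Krt23* and *Epcam* leave out neither.

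**Figure D3:**
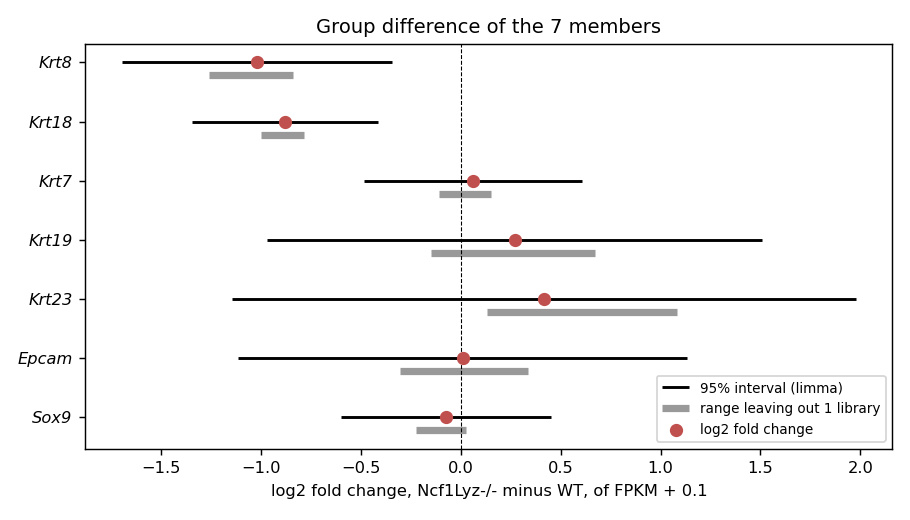
Log2 fold change of each member, *Ncf1Lyz-/-* minus WT, on log2(FPKM + 0.1), with its 95% limma interval (black) and the range when 1 library is left out (grey). The intervals of *Krt8* (-1.69 to -0.34) and *Krt18* (-1.34 to -0.42) lie below 0 before adjustment over all genes, and the other 5 span 0.

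FPKM is scaled by length, so the members can be set in order of level. Over all 9 livers *Krt8* averaged 209 FPKM, *Krt18* 199, *Krt23* 11.1, *Krt19* 0.758, *Epcam* 0.750, *Sox9* 0.726 and *Krt7* 0.113 FPKM. *Krt8* and *Krt18* are not separated, since either can be the higher in a liver, and the same holds for *Krt19*, *Epcam* and *Sox9*. The highest *Krt7* value (0.159 FPKM) was below the lowest of any other member (0.212 FPKM, *Epcam* in WT6). In every liver the hepatocyte pair outweighed *Krt7* and *Krt19* together, by 116-fold in NKO3 to 567-fold in NKO5 among *Ncf1Lyz-/-* livers and by 427-fold in WT2 to 1660-fold in WT6 among WT livers.

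Beyond the *Krt8* and *Krt18* pair, no relation between members passed the adjustment over 21 pairs. *Epcam* and *Krt19* had r = 0.75 (exact permutation p = 0.025, adjusted p = 0.177) and rho = 0.72 (exact permutation p = 0.037, adjusted p = 0.258), and r was 0.83 without NKO3 and NKO5. *Epcam* and *Krt7* had r = 0.79 (exact permutation p = 0.0080, adjusted p = 0.084) and rho = 0.73 (exact permutation p = 0.031, adjusted p = 0.258), but r was 0.40 without NKO4 and WT6, so this relation rests on those livers. *Sox9* had r between -0.26 and 0.36 with the other members, and its r with *Krt8* (0.36) was 0.82 without NKO3 and NKO5, so it depends on those livers. Its r with *Krt18* (0.35) was -0.03 without WT1 and WT3. With *Krt19*, r was -0.04 for *Krt8* and 0.18 for *Krt18*. After the group means were removed, r with *Krt19* was 0.12 for *Krt8* and 0.56 for *Krt18* (0.82 among *Ncf1Lyz-/-* livers and 0.51 among WT livers), a value that was not tested. Without WT1 and WT3, the r of 0.18 between *Krt18* and *Krt19* turned to -0.12. With *Epcam*, r was -0.11 for *Krt8* and 0.07 for *Krt18*, and with *Krt23* it was -0.05 and -0.27.

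**Figure D4:**
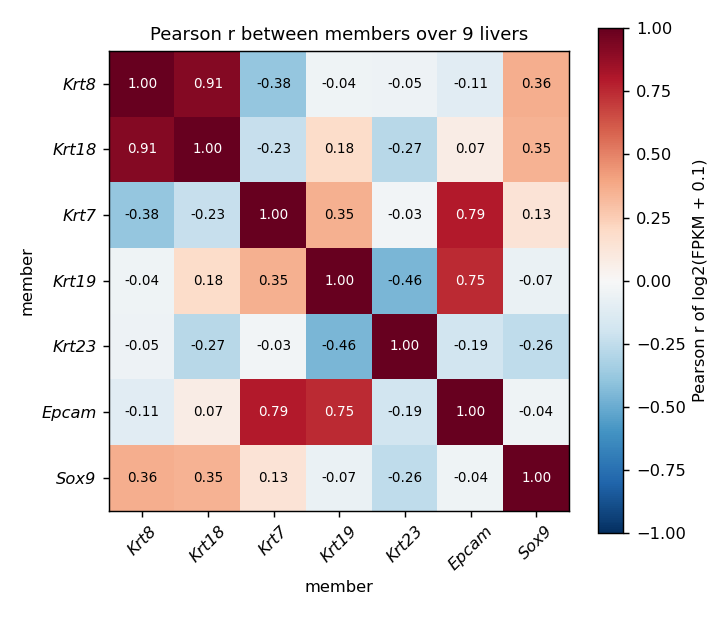
Pearson r of log2(FPKM + 0.1) over 9 livers for the 21 pairs of members (red positive, blue negative). *Krt8* with *Krt18* (0.91) is the only pair past the adjusted threshold, in permutations that did not hold genotype fixed. *Epcam* with *Krt7* (0.79) and with *Krt19* (0.75) follow.

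Among all tested genes, those whose log2 values followed a member most closely over the 9 livers were mostly not keratin or duct genes. For *Krt8* they were *Rpl35a-ps3* (r = 0.97), the copy *Krt8-ps* (0.96) and *Dnajc19* (0.96), and *Krt18* came 22nd of 12349. For *Krt18* they were *Isyna1* (0.96), *Shc1* (0.95) and *St3gal3* (0.94), and *Krt8* came 11th. For *Epcam* they were *Prickle3* (0.97), *Dynlt3* (0.94) and *Ormdl1* (0.92), for *Krt19* *Pde7a* (0.93), *Med22* (0.92) and *Dctn4* (0.92), and for *Krt23* *Eef1akmt4*, *Ppm1d* and *Acp2* (each 0.93). For *Krt7* they were *Clp1* (0.93), *Gm11518* (0.93) and *Atp5c1* (0.92), and for *Sox9* *Zfp280c* (0.91), *Cdk5rap3* (0.91) and *Mir8112* (0.90). With 9 livers and this many candidates, such values describe these libraries only.

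Other keratin genes were nearly absent. Of 50 further rows with a keratin symbol, 37 were absent from every library and 48 had a mean under 0.1 FPKM. Those above were *Krt8-ps* and *Krt10*. *Krt10*, a type I keratin of the epidermis, had 0.417 ± 0.115 FPKM (SD, n = 4) in *Ncf1Lyz-/-* livers, against 0.345 ± 0.136 FPKM (SD, n = 5) in WT livers.

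Genes that work with keratin 8 and 18 lay on both sides of 0. Of 21 listed linkers, junction proteins and aggregate components, 20 were tested, of which 11 had a negative and 9 a positive log2 fold change, with a median of -0.05 beside 0.00 for all genes tested, and 0 had an unadjusted limma p under 0.05. *Plec*, whose product plectin ties keratin filaments to junctions, had 2.89 ± 1.28 FPKM in *Ncf1Lyz-/-* livers, against 3.90 ± 0.10 FPKM in WT livers (log2 fold change -0.52, limma adjusted p = 0.844). *Tgm2*, the crosslinking enzyme transglutaminase found in Mallory-Denk bodies, had 52.8 ± 12.0 FPKM in *Ncf1Lyz-/-* livers, against 89.1 ± 41.8 FPKM in WT livers (-0.63, adjusted p = 0.890). *Ywhaz*, a 14-3-3 protein of the kind that binds keratin 18, was at -0.18 on the log2 scale and did not pass.

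Markers of the duct epithelium beyond the members were also split in direction. Of 25 listed, 9 were tested, with 5 negative and 4 positive log2 fold changes, a median of -0.05 and 0 with an unadjusted limma p under 0.05. The summed FPKM of the 25 genes ranged between 83.4 and 102 in *Ncf1Lyz-/-* livers and between 80.7 and 117 in WT livers, most of it from *Aqp1* and *Spp1*, which other liver cells also express. With the deeper libraries alone 8 of the 9 were negative, with a median of -0.37 where that of all tested genes was -0.11, and the keratin partners had a median of -0.24 (15 of 20 negative). There, 1 of the 9 duct genes and 3 of the 20 keratin partners were lower at an unadjusted limma p under 0.05, beside 505 of all 12350 tested genes. With all 9 libraries, among the smallest p were those of *Muc1* (log2 fold change -0.25), *Slc4a2*, the anion exchanger of duct cells (0.29), and *Anxa2* (-0.26). Among the defining duct genes, *Cftr* and *Sctr* had means of 0.00724 FPKM or less over all livers.

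Of the regulators that set duct cell fate (Notch, Hippo and TGF-β pathways and liver transcription factors), 17 of the 21 found in the table were tested, with 10 negative and 7 positive log2 fold changes and a median of -0.03. *Nrarp*, a target and inhibitor of Notch signalling, had 0.534, 0.409, 0.581 and 0.575 FPKM in NKO2 to NKO5, against 1.14, 0.788, 1.29, 1.39 and 0.997 FPKM in WT1 to WT4 and WT6. The groups did not overlap (log2 fold change -0.95, limma adjusted p = 0.498, exact permutation p = 0.0159, two-sided). *Notch2*, the receptor through which ducts form, lay the other way, at 3.61 ± 0.357 FPKM in *Ncf1Lyz-/-* livers, against 2.92 ± 0.265 FPKM in WT livers, again without overlap (0.30, adjusted p = 0.842). *Tead1*, the DNA-binding partner of YAP, had a log2 fold change of -1.34 (adjusted p = 0.842), with NKO2 alone at 0.0189 FPKM, and *Foxa2* one of 0.29 (adjusted p = 0.890). At an unadjusted limma p under 0.05, 2 of the 17 regulators (*Nrarp* and *Tead1*) were lower and 1 (*Notch2*) higher. Of all tested genes 3.73% were lower and 2.17% higher at this threshold. Groups that did not overlap, as for *Nrarp* and *Notch2*, occurred in 1.5% of all tested genes with lower and 0.713% with higher values.

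On a list of genes of fetal or injured hepatocytes, chosen with earlier results known, those tested had negative log2 fold changes. Because of that choice, the shared direction describes the list and lends no support to the difference of *Krt8* and *Krt18*. Of its fetal genes only *Afp* (-0.41, limma adjusted p = 0.905) was tested. Of 14 listed, 9 were tested and all 9 had a negative log2 fold change, with a median of -1.33, where 49.5% of all tested genes were negative. The 9 are not separate observations. *Saa1*, *Saa2*, *Orm2* and *Lcn2* were all highest in WT3 and WT6 among WT livers and in NKO5 among *Ncf1Lyz-/-* livers. The median is the value of *Cdkn1a* (standard error 1.07, limma unadjusted p = 0.243). Leaving out 1 library moved this median between -2.09 (without WT2) and -0.55 (without NKO3, when 8 of 9 were negative), and it was -0.71 with the deeper libraries alone. With no filter on low values 10 of 13 were negative, the median was -0.80 and 1 was lower at an unadjusted p under 0.05. The positive ones were *Gpc3*, *Igf2bp3* and *Igf2*, all under the mean of 0.5 FPKM, and *Gdf15* (-0.15) had a higher mean in *Ncf1Lyz-/-* livers (13.1 FPKM, against 11.2 FPKM in WT livers). At an unadjusted limma p under 0.05, 2 of the 9 tested (*Orm2* and *Lcn2*) were lower, where 3.73% of all tested genes were lower. None passed the adjusted threshold. *Orm2*, an acute-phase protein of hepatocytes, had 34.1, 25.0, 25.8 and 80.1 FPKM in NKO2 to NKO5, against 76.8, 50.4, 247, 147 and 229 FPKM in WT1 to WT4 and WT6. NKO5 was the only *Ncf1Lyz-/-* liver above a WT liver, and it exceeded both WT1 and WT2 (log2 fold change -1.79, limma adjusted p = 0.768). *Lcn2*, which encodes the iron-scavenging protein lipocalin 2 made by injured hepatocytes and neutrophils, had 27.0 ± 28.4 FPKM in *Ncf1Lyz-/-* livers, against 152 ± 160 FPKM in WT livers (-2.49, adjusted p = 0.842). Its groups overlapped, with WT2 (12.8 FPKM) below NKO2 (18.5 FPKM). The exact two-sided permutation gave p = 0.103 for *Lcn2* and p = 0.0397 for *Orm2*. *Saa1*, a further acute-phase gene (-2.35), and *Tnfrsf12a*, the receptor of TWEAK (-0.83), did not reach an unadjusted limma p under 0.05. *Saa1* had 8.39, 4.30, 5.17 and 211 FPKM in NKO2 to NKO5, against 23.8, 22.6, 431, 33.6 and 263 FPKM in WT1 to WT4 and WT6.

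**Figure D5:**
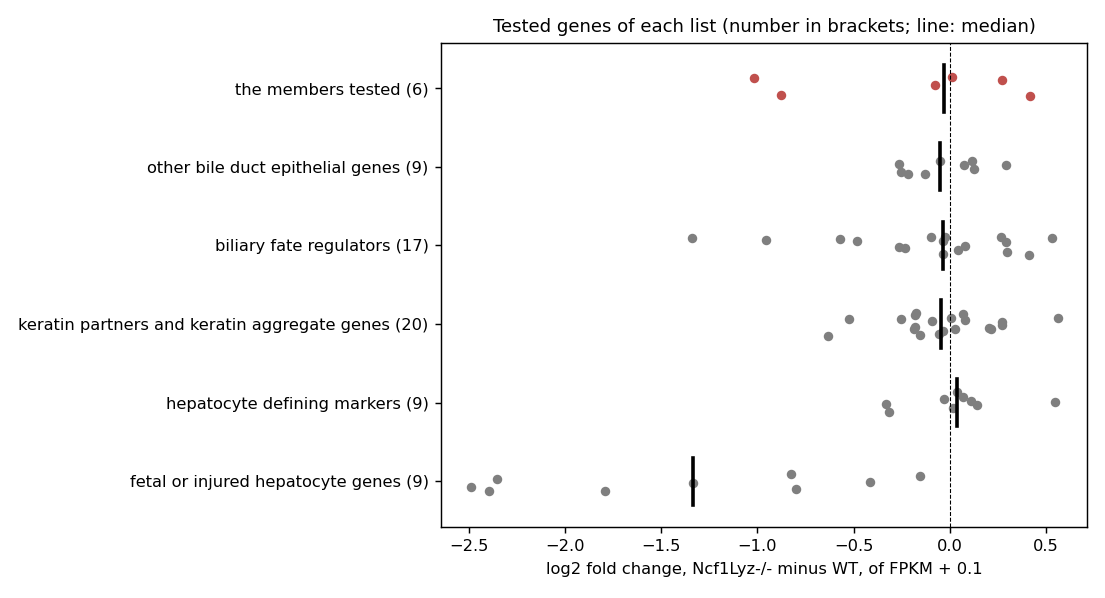
Log2 fold change (*Ncf1Lyz-/-* minus WT, of FPKM + 0.1) of each tested gene of the members and of 5 lists; 1 point per gene, black line at the list's median. With all 9 libraries, the 9 tested genes of fetal or injured hepatocytes lie below 0 (median -1.33). Duct genes (-0.05), keratin partners (-0.05), fate regulators (-0.03) and hepatocyte markers (0.04) centre near 0. All lists were chosen with earlier results known.

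Hepatocyte markers did not share the direction of the keratin pair. The 9 hepatocyte markers had 3 negative and 6 positive log2 fold changes with a median of 0.04, and 0 had an unadjusted limma p under 0.05. The smallest p belonged to *Apoa1* (-0.31) and *Fgb* (-0.33), which encode an apolipoprotein and a fibrinogen chain, and to *Asgr1* (0.14), the asialoglycoprotein receptor, and *Apob* (0.55). Their summed FPKM ranged between 48355 and 61965 in *Ncf1Lyz-/-* livers and between 43504 and 56865 in WT livers.

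Markers of other epithelia that express *Krt8* and *Krt18* were low beside these 2 genes, but their sums reached the levels of *Krt19* and *Epcam*. None of 7 mesothelial genes reached a mean of 0.5 FPKM, and their sum was 0.160 to 1.06 FPKM in *Ncf1Lyz-/-* livers and 0.145 to 1.28 FPKM in WT livers, with *Gpm6a* and *Upk3b* the highest. NKO3 and WT2, the livers with the largest such sums in their groups, had the lowest *Krt8* of their groups, and NKO3 had the highest *Krt19* of all livers. WT2, with the largest sum of all livers, had a *Krt19* of 0.616 FPKM, below WT1 (0.638 FPKM) and WT3 (1.35 FPKM). Of 15 genes of gallbladder, stomach and pancreas, 2 (*Ctrb1* and *Cela2a*, both of the exocrine pancreas) were tested. Their list summed to 10.8 FPKM in NKO4, 0.325 to 1.16 FPKM in the other *Ncf1Lyz-/-* livers and 1.42 to 1.74 FPKM in WT livers, with *Ctrb1* alone at 4.44 FPKM in NKO4. The part of these tissues in the members' values was not tested.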

How the data were processed

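Livers of 4 *Ncf1Lyz-/-* and 5 WT mice were measured, and columns of the deposited table were placed in groups by their names. The authors made poly(A) libraries from RNA with an integrity number above 7, mapped reads with HISAT2 and assembled them with StringTie. Versions, genome build and annotation are not given in the sources used here. The deposited values are FPKM, as the authors computed them, with absent genes at 0.0001. The deposited fold ratio, its log2 and the p-value and q-value are the authors' own comparison of the groups and were not used.

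Depth was recovered from 15108 single-exon genes, in which low FPKM values multiplied by gene length fell on a grid with the spacing of 1 fragment. Of the low values, 48.4% to 55.0% lay on multiples of 0.5 fragments, to a tolerance of 0.1 of that spacing, where an even spread gives 20%. Depth is thus approximate, and 1 fragment on 1 kilobase was worth 0.0489 to 0.0643 FPKM. Fragments behind a gene were estimated from its longest transcript. Coordinates come from GENCODE M21 on GRCm38 (55141 of the 55401 identifiers matched) and promoters from RefSeq.

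The *Ncf1Lyz-/-* against WT difference was fitted to log2(FPKM + 0.1) in limma 3.58.1 (R 4.3.3), with the trend option and no covariate, for genes whose mean reached 0.5 FPKM, with Benjamini-Hochberg adjustment over all of them. *Krt7* was under the filter and its fold change comes from a fit of all genes present in any library. Single genes and the 21 pairs of members were compared by exact permutation tests (Python 3.11.15, scipy 1.17.1). Lists are described by counts and medians, with no test. Scripts were tested on simulated data. Members, lists and motifs were chosen with earlier results of these data known. Named genes are the members, the up to 4 genes with the smallest p of each list, the highest of other cell types' markers and the 3 genes most like each member, and a few items this takes in, and the promoter of 1 member, are not reported here. *Ncf1*, *Gpc3*, *Igf2bp3*, *Igf2*, *Gdf15*, *Alb*, *Krt10*, *Aqp1*, *Spp1*, *Cftr* and *Sctr* were named outside this rule after their values were seen. Alternatives were other pseudocounts, filters and scalings, no trend, array weights, deeper libraries only, a replicate block and leaving out each library.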

Additional observations from a re-analysis of the deposited data

How the results depend on the processing

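*Krt8* and *Krt18* kept a negative log2 fold change under all 20 alternatives, at -1.26 to -0.75 and -1.01 to -0.64. The unadjusted limma p stayed under 0.05 in 18 and 19 of them, and the adjusted p ranged between 0.232 and 1.0 for *Krt8* and between 0.176 and 1.0 for *Krt18*. The other members changed sign. Among deeper libraries alone *Krt7* was at -0.051, *Krt23* at -0.68, *Epcam* at -0.35 and *Sox9* at 0.20. *Epcam* was at -0.015 with a pseudocount of 0.5, -0.019 with a pseudocount of 1 and -0.014 with libraries scaled to the same sum. Leaving out 1 library gave -0.11 to 0.15 for *Krt7*, -0.15 to 0.67 for *Krt19*, -0.31 to 0.34 for *Epcam* and -0.23 to 0.024 for *Sox9*. *Krt23*, whose range was 0.13 to 1.08, was at 1.18 with array weights.

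Over all genes, 1 passed an adjusted p under 0.05. That count was 0 with no filter on low values (1274 at an unadjusted p under 0.05), 0 without the trend, 6 with array weights (1401 unadjusted) and 0 to 1 with 1 library left out. At an unadjusted p it was 729 and lay between 544 and 1231 with 1 library left out, the highest without WT2. Higher and lower genes numbered 268 and 461, or 364 and 421 when scaled by median ratios, 190 and 526 when scaled to the same sum, and 155 and 505 with the deeper libraries alone. The cause of these changes was not tested.

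Column numbers 2, 3 and 4 occur in both groups, but same-numbered livers did not deviate together (r = -0.14, -0.11 and 0.01) and nothing in the labels pairs them. With these numbers as a replicate block, *Krt8* was at -0.75 (limma unadjusted p = 0.166), *Krt18* at -0.64 (unadjusted p = 0.058), *Krt7* at -0.26 and *Epcam* at -0.40, and 0 genes passed the adjusted threshold, with 285 at an unadjusted p under 0.05. Depth limits *Krt7*, *Krt19* and *Epcam* most, with as few as 2, 7 and 7 fragments in a library.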
